A study of Mus musculus with 3 samples.

Results

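The aryl hydrocarbon receptor (AhR) battery was examined in Hepa1c1c7, a hepatoma line of the mouse that is widely used to study this receptor. Its 10 members were a list of named genes, and each gene was found on the array through its RefSeq accession. They were measured by 12 probes, out of 22907 named genes and 56605 probes in all. The cells had been transiently transfected with an empty plasmid, or with an expression clone of the mouse open reading frame of either Mst1r, which encodes a receptor tyrosine kinase, or Slpi, which encodes a secreted protease inhibitor. The samples are called empty vector, Mst1r vector and Slpi vector, with 1 sample and 1 single-colour Agilent array each. Where 3 signals stand in a row without their arrays, they follow this order. No AhR ligand is named in the protocols, so the values are levels without added ligand.

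AhR is a ligand-activated transcription factor of the bHLH-PAS family. In the absence of ligand it is held in the cytosol by a chaperone complex. After binding a ligand, such as dioxin or a tryptophan derivative, it enters the nucleus, pairs with Arnt and binds xenobiotic response elements (XREs) near its target genes. The targets include the CYP1 monooxygenases, several conjugating and reducing enzymes, and the repressors Ahrr and Tiparp, which limit the response.

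With Mst1r vector the receptor gene Ahr and its target Cyp1a1 were both lower than with empty vector, by 1.82-fold and 1.62-fold, and lower than with Slpi vector. The partner Arnt, the repressor Tiparp and the target Aldh3a1 differed by less than 2 SDs of the spot error, and so did Nqo1. With Slpi vector no member detected on all arrays differed from empty vector by more than 2 such SDs. Ahrr and Ugt1a6a were undetected (not well above background) throughout, and Cyp1a2 and Cyp1b1 were detected on a single array each. A single array stood for each group, so the differences below were not tested and have no replicates behind them.

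The proximal promoters of the members were taken from RefSeq (GRCm38.p6) for 8 of the 10 genes, as the 250 bases before the gene start. The core of the XRE, GCGTG, was searched on both strands, and 5 of the 8 windows held it (Arnt, Tiparp, Cyp1a1, Ahrr and Cyp1b1). It was present in 28.2% of 32851 promoter windows of the same length. The longer form TNGCGTG, which contains the core, was found in Ahrr and in 4.1% of all windows. The TATA box TATAAA was found in Cyp1a1, Cyp1a2 and Nqo1 and in 12.4% of all windows. TGANNNNGC, a loose form of the antioxidant response element in which the base after TGA is free, was found in 4 members (Ugt1a6a, Tiparp, Arnt and Ahrr). It was found in 35.2% of all windows. A match is a description of the letters and not a bound site, and bases further upstream were not searched. The windows of 3 members are shown 5′ to 3′ because they hold the core in a target that was lower with Mst1r vector (Cyp1a1), a target that was not (Tiparp) and a target not well above background (Ahrr). Capitals mark GCGTG or its reverse complement CACGC, and TATAAA.
Cyp1a1: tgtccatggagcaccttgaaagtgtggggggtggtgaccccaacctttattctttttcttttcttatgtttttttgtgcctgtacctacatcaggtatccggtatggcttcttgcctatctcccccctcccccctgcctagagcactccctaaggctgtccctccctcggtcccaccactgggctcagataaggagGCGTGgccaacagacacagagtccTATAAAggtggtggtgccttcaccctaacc
Tiparp: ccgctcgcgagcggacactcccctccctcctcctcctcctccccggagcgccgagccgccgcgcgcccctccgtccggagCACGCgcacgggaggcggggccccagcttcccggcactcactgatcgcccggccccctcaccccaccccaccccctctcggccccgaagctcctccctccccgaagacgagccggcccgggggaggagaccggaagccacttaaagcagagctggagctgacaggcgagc
Ahrr: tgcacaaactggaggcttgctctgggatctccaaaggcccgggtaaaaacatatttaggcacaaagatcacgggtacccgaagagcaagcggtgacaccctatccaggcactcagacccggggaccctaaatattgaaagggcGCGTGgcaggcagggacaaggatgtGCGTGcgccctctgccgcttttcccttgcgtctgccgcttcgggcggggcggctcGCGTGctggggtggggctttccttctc
The Cyp1a1 window is chr9:57697363-57697612 on the plus strand, with the core starting 54 bases and the TATA box 30 bases before the gene start. The Tiparp window is chr3:65528197-65528446 on the plus strand, with the core on the opposite strand 170 bases before the start. The Ahrr window is chr13:74292332-74292581 on the minus strand and held 3 cores, starting 107, 82 and 27 bases before the start. Cyp1a1 and Cyp1a2 lie next to each other on chromosome 9 and run in opposite directions, with 13958 bases between their starts.

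The arrays were alike in overall signal. Between 46.7% and 48.5% of the probes were well above background, the flag that the image software gives to a spot clearly brighter than its background, and no spot was saturated. The processed signal, a background-subtracted intensity, had a 75th percentile of 229 to 268. Values were scaled to this percentile before arrays were compared. The error after a difference was built from the SD between repeated spots of probes printed at least 10 times, at the same signal level. The SDs of both arrays were combined, and the error is smaller for probes on several spots. Where the differences of a pair of genes were compared, the errors of both were combined. This error covers no variation between cultures. Between a log2 signal of 8 and 10 the SD rested on 6 such values, and between 10 and 14 on 25. The transfected genes did not check the labels, and whether the Mst1r probe lies within the transfected reading frame is not known. The single Mst1r probe gave processed signals of 4.15 on the empty array, 4.08 on the Mst1r array and 3.7 on the Slpi array, all near the floor of the arrays. The brighter Slpi probe gave 6459, 3843 and 6680. Mst1r vector and Slpi vector below therefore mean the arrays labelled so. For the cell type, 7 of 10 hepatocyte and hepatoma markers were well above background on all arrays, including Afp and Alb, whereas both probes of Hnf4a were not on any array. The summed signal of this list was 297500, 251300 and 280700. Of the other cell types, Dcn and Col1a1 of the 4 fibroblast and stellate markers were bright (summed signal 48330, 34760 and 46820). Pdgfrb was also well above background on all arrays (596, 533 and 592). The 5 leukocyte and Kupffer markers summed to 571.1, 405.6 and 513.3. Most of this came from Cd68, which was well above background on all arrays (530.5, 377.6 and 481.6). Lyz2 was so on the empty array only, and Ptprc, Adgre1 and Clec4f were not above background. The 3 endothelial markers summed to 44.8, 42.8 and 31.1. Pecam1 was well above background on all arrays (35.9, 32.1 and 24.1), whereas Cdh5 and Kdr were not above background. With Mst1r vector the 7 detected hepatocyte and hepatoma markers had a median log2 difference from empty vector of 0.0010 and went both ways, with Alb at 0.57 ± 0.13 and Trf at -0.21 ± 0.08. Of the fibroblast and stellate markers Dcn stood at -0.35 ± 0.08 and Col1a1 at 0.27 ± 0.04, and the part of the marker genes in the results below was not tested.

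**Figure D1:**
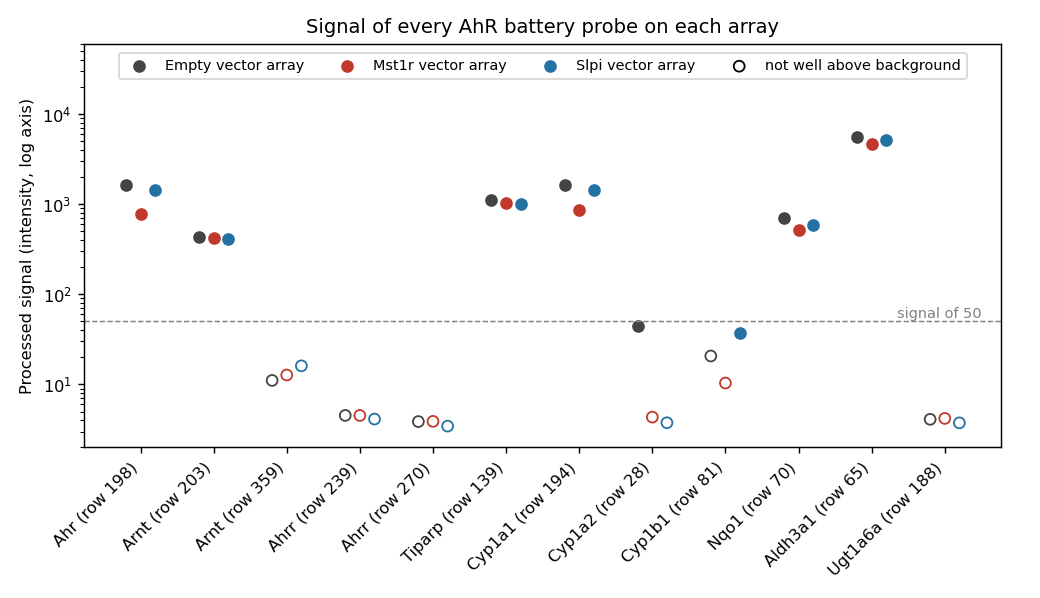
Processed signal (intensity, log axis) of the 12 probes of the AhR battery on the empty, Mst1r and Slpi vector arrays, 1 point per array, with the row of the spot in brackets. Filled points are well above background, and the dashed line marks a signal of 50. Signals are shown before scaling, and the Mst1r vector array had the lowest 75th percentile (229, beside 268 for empty vector and 254 for Slpi vector). Ahr and Cyp1a1 are lowest on the Mst1r vector array (771 and 866), as are Nqo1 (515) and Aldh3a1 (4661). The probes of Ahrr and Ugt1a6a are open on every array. Levels of different probes cannot be set against each other.

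Ahr encodes the receptor itself. Its single probe (NM_013464, row 198) gave processed signals of 1641 on the empty array, 771 on the Mst1r array and 1443 on the Slpi array, and was well above background on each array. The Mst1r vector array was low and the others were close together. The scaled log2 difference was -0.86 ± 0.15 between Mst1r vector and empty vector, and -0.75 ± 0.15 between Mst1r vector and Slpi vector. It was -0.11 ± 0.13 between Slpi vector and empty vector, which is within the spot error, so the order of these arrays is not given. Without scaling, the first of these differences was -1.09, past 2-fold. Among 12455 named genes that were well above background on all arrays, 115 (0.923%) had a lower difference between Mst1r vector and empty vector than Ahr, and 145 (1.16%) had a lower difference between Mst1r vector and Slpi vector.

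Arnt encodes the nuclear partner of AhR and also of the hypoxia-inducible factors. Its brighter probe (NM_001037737, row 203) gave 433 on the empty array, 427 on the Mst1r array and 409 on the Slpi array, nearly the same on the arrays. The scaled log2 difference from empty vector was 0.21 ± 0.17 for Mst1r vector and -0.0044 ± 0.17 for Slpi vector. The second probe (row 359) stayed in the background of every array, with signals of 11.1, 12.7 and 16.1. The receptor and its partner can be compared without the choice of scaling, since both differences come from the same arrays. Between Mst1r vector and empty vector the difference of Ahr minus that of Arnt was -1.07 ± 0.23 (log2), and between Mst1r vector and Slpi vector it was -0.97 ± 0.23. For Slpi vector against empty vector it was -0.10 ± 0.22.

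Ahrr and Tiparp are repressors that AhR itself induces. Ahrr competes for Arnt, and Tiparp is an ADP-ribosyltransferase that modifies AhR. Both Ahrr probes (NM_009644, rows 239 and 270) were near the floor of the arrays, with signals of 3.44 to 4.53, and none was well above background, so no difference is given. The Tiparp probe (NM_178892, row 139) was well above background on each array and gave 1118 on the empty array, 1037 on the Mst1r array and 996 on the Slpi array. Its log2 difference from empty vector was 0.12 ± 0.13 for Mst1r vector and -0.09 ± 0.15 for Slpi vector, both within the spot error. The sign for Mst1r vector depended on the scaling, with -0.11 without scaling.

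Cyp1a1, Cyp1a2 and Cyp1b1 encode monooxygenases that oxidise polycyclic hydrocarbons, and Cyp1a1 is the standard readout of AhR activity. The Cyp1a1 probe (NM_009992, row 194) gave 1645 on the empty array, 866 on the Mst1r array and 1432 on the Slpi array, in the same pattern as Ahr. The log2 difference was -0.70 ± 0.15 between Mst1r vector and empty vector, -0.57 ± 0.15 between Mst1r vector and Slpi vector, and -0.12 ± 0.13 between Slpi vector and empty vector. Lower differences were seen in 193 (1.55%) of the 12455 genes in the first comparison and in 349 (2.8%) in the second. On the same arrays the difference of Cyp1a1 minus that of Tiparp was -0.82 ± 0.20 (log2) between Mst1r vector and empty vector, and minus that of Aldh3a1 it was -0.66 ± 0.20. The differences of Ahr and Cyp1a1 were -0.16 ± 0.22 apart, within the spot error.

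The other CYP1 genes were at the edge of detection. Cyp1a2, the CYP1A enzyme known from adult liver, had a single probe (NM_009993, row 28) that gave 45.04 on the empty array, 4.34 on the Mst1r array and 3.75 on the Slpi array. It was detected with empty vector only. Compared with that array, the Mst1r vector array was at least 2.04-fold lower and the Slpi vector array at least 2.58-fold lower. For these bounds the dim side was set to the faintest signal that still counted as well above background, which was 18.8 and 16.6. This probe lay among rows where unrelated probes were bright on a single array. In rows 1 to 32 of the empty vector array, 143 of 1664 probes that were under 15 on both other arrays were at least as bright as Cyp1a2, which is 8.59% (exact 95% binomial interval 7.29 to 10, counting error only). In rows 193 to 224 it was 0 of 2401, which allows up to 0.154% by the same interval. Ahr and Cyp1a1 lay there but were bright on all arrays, so this count does not bear on them. The bound for Cyp1a2 rests on a spot in rows 1 to 32. Cyp1b1 (NM_009994, row 81), a CYP1 enzyme known mainly outside the liver, gave 20.7, 10.4 and 36.9 and was detected with Slpi vector only. The measured log2 difference between Slpi vector and empty vector was 0.91 ± 0.81, little more than the spot error at this level.

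Nqo1, Aldh3a1 and Ugt1a6a encode a quinone reductase, an aldehyde dehydrogenase and a glucuronosyltransferase, which act on the products of oxidation. The Nqo1 probe (NM_008706, row 70) gave 704 on the empty array, 515 on the Mst1r array and 590 on the Slpi array, highest with empty vector. The log2 difference relative to empty vector was -0.22 ± 0.17 for Mst1r vector and -0.18 ± 0.17 for Slpi vector, each under 2 SDs of the spot error. The difference of Cyp1a1 minus that of Nqo1, for Mst1r vector against empty vector, was -0.47 ± 0.23. The Aldh3a1 probe (NM_007436, row 65) gave 5599, 4661 and 5151, and its scaled log2 difference from empty vector was -0.03 ± 0.13 for Mst1r vector and -0.04 ± 0.13 for Slpi vector. The single Ugt1a6a probe (NM_145079, row 188) gave 4.10, 4.19 and 3.74, so it was not detected.

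**Figure D2:**
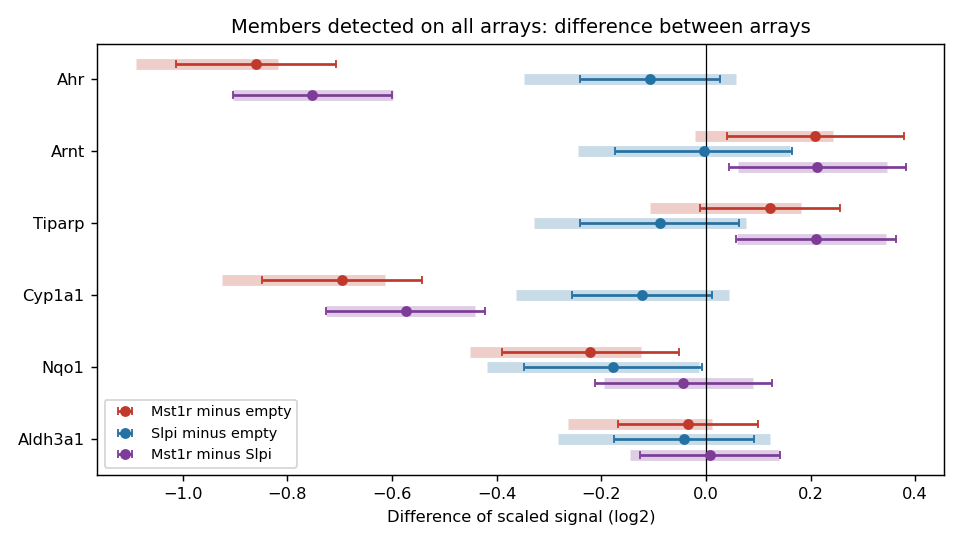
Scaled log2 difference between arrays for the 6 members that were well above background on all arrays. Points are single differences, and bars are the spot error of the difference. The pale band behind each point spans the values under the other processing settings. Ahr and Cyp1a1 lie below 0 in both comparisons of the Mst1r vector array under every setting run. Several of these settings could not change the values of these genes. The points for Slpi vector against empty vector lie between -0.18 and -0.0044. Their bands reach from -0.42 (Nqo1) to 0.16 (Arnt).

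The members were then set beside all named genes. With a processed signal over 50 on the brighter array, 6 of the 10 members could be counted at 2-fold. With Mst1r vector against empty vector 0 of the 6 were at least 2-fold lower, where 2.26% of 12061 genes were, and 0 were higher, where 3.28% were. With Slpi vector against empty vector 0 of the 6 were lower or higher, beside 2.09% and 1.85% of 11974 genes. Between Mst1r vector and Slpi vector 0 were lower or higher, beside 1.9% and 3.12% of 11947 genes. At 10-fold no member passed in any comparison, beside 1.11% of genes lower and 1.17% higher for Mst1r vector and empty vector, 1.1% and 0.869% for Slpi vector and empty vector, and 0.988% and 1.12% for Mst1r vector and Slpi vector. A limit based on the error was also used, namely a difference beyond 2 SDs of the spot error with the same sign under 5 scalings. By this limit 2 of the 6 members, Ahr and Cyp1a1, were lower with Mst1r vector than with empty vector, beside 6.05% of 12455 genes, and 0 were higher, beside 2.75%. The same 2 members were lower when Mst1r vector was set against Slpi vector, beside 3.59%, and 0 were higher, beside 3.4%. With Slpi vector against empty vector 0 members passed in either direction, beside 0.482% of the genes lower and 0.682% higher. Both comparisons with Mst1r vector use the same Mst1r vector array, so they are not independent.

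The median log2 difference of the 6 members was -0.13 for Mst1r vector and -0.10 for Slpi vector against empty vector, and -0.02 between Mst1r vector and Slpi vector. Over all 12455 genes the medians were -0.05, 0.0057 and -0.05. Because Ahr and Cyp1a1 were similar in signal to many genes, the spread of the 3431 genes with a mean signal between 500 and 2000 was also taken. Between Mst1r vector and empty vector the middle of this spread, from the 5th to the 95th percentile, ran from -0.38 to 0.31, and Ahr and Cyp1a1 lay below it. Between Slpi vector and empty vector it ran from -0.19 to 0.19.

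**Figure D3:**
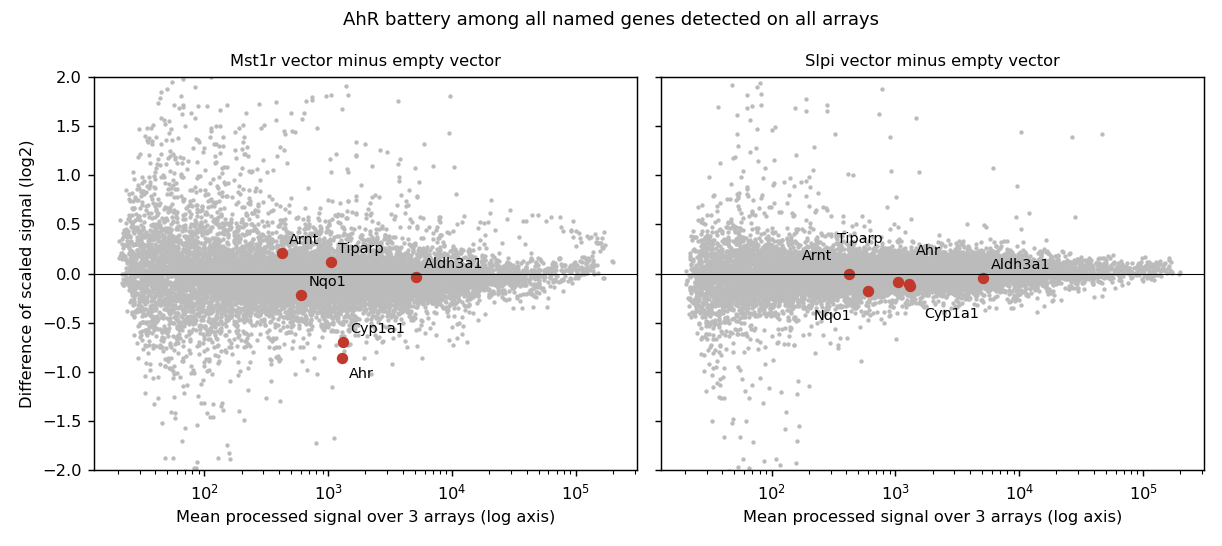
Scaled log2 difference from empty vector against the mean processed signal over 3 arrays (log axis), for Mst1r vector (left) and Slpi vector (right). Grey points are the 12455 named genes that were well above background on all arrays, and red points are the AhR battery. The axis ends at a difference of 2 in either direction, which leaves out 62 genes on the left and 28 on the right. Ahr (-0.86) and Cyp1a1 (-0.70) lie below most genes of like signal on the left, and all members lie inside the cloud on the right.

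Both Ahr and Cyp1a1 lay in the middle rows of the array. The 130 detected probes within 10 rows and 10 columns of the Ahr spot had a median unscaled difference of -0.25 between Mst1r vector and empty vector, and the 143 around the Cyp1a1 spot had -0.31. Against these neighbours the difference was -0.84 for Ahr and -0.61 for Cyp1a1. In the pair of log2 differences from empty vector, the genes nearest to Cyp1a1 were Cd109 (distance 0.0072), Rtn4rl1 (0.02) and Camk2b (0.04), over 3 arrays. The distance of Ahr was 0.16, which was within the spot error of 0.20, as were 185 of 12454 genes.

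The further genes of the pathway were taken from lists by role. The chaperone complex that holds AhR in the cytosol includes the Hsp90 proteins and the co-chaperone Ptges3. All 4 genes listed for it were well above background, and 0 passed the error limit with either vector. Of all genes 6.05% passed as lower and 2.75% as higher with Mst1r vector, and 0.482% and 0.682% with Slpi vector. At these shares the count says nothing particular of the list. Hsp90aa1 gave 35360, 28380 and 33800, and with Mst1r vector it differed from empty vector by -0.09 ± 0.08 (log2), the largest difference of the list in that comparison. Of the 9 other bHLH-PAS factors, 5 were detected on all arrays and 0 of these passed the limit, beside the same shares of all genes. Arntl, a clock factor, had the largest difference among them, 0.37 ± 0.17 for Mst1r vector and 0.31 ± 0.17 for Slpi vector, but its dimmer probes gave 0.15 and -0.03 with Mst1r vector and -0.18 and -0.08 with Slpi vector. Hif3a, a relative of Hif1a, gave 11.6, 65.0 and 37.3 in row 91. Compared with empty vector, the bound was 4.03-fold higher on the Mst1r vector array and 2.08-fold higher on the Slpi vector array. The Slpi vector difference, 1.76 ± 0.81 (log2), did not pass the error limit. In rows 65 to 96, 3.43% of 1780 probes under 15 on both other arrays were over 50 on the Mst1r vector array. The second Hif3a probe, in row 166, gave 13.5, 26.0 and 6.66. Its bound for Mst1r vector was 1.61-fold higher, and for Slpi vector the probes disagreed.

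The 10 transcriptional coregulators were all detected, with a median log2 difference from empty vector of -0.06 for Mst1r vector and -0.01 for Slpi vector. The coactivator gene Ncoa1 passed the limit as lower with Mst1r vector. It gave 1122, 756 and 845, with -0.34 ± 0.15 for Mst1r vector and -0.33 ± 0.15 for Slpi vector, where it did not pass. Of 7 genes for electron supply to P450s, haem and epoxide handling, 1 passed as lower with Mst1r vector, beside 6.05% of all genes, so the count says nothing particular of the list. This was Alas1, which encodes the first enzyme of haem synthesis. It gave 4991, 3348 and 4607 (-0.35 ± 0.13 with Mst1r vector), and its other probes differed by -0.37 and -0.53. With Slpi vector the largest difference in this list was that of Cyb5r3 (-0.12 ± 0.11).

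Of 13 further genes known as AhR targets, 10 had a matched probe (all but Gsta1, Ugt1a1 and Ugt1a7c) and all of these were detected. With Mst1r vector 3 passed the limit as lower and 1 as higher, beside 6.05% and 2.75% of all genes, and with Slpi vector 0 passed, beside 0.482% lower and 0.682% higher. The lower genes were Socs2, a feedback inhibitor of cytokine signalling, Nedd9, a scaffold of cell adhesion signalling, and Cyp2s1, a P450. Socs2 gave 522, 264 and 416, with a log2 difference of -0.75 ± 0.17 for Mst1r vector and -0.25 ± 0.17 for Slpi vector. Its second probe gave 216, 122 and 181, low on the same array. Nedd9 (262, 138 and 243) differed by -0.69 ± 0.19 and Cyp2s1 (1022, 611 and 983) by -0.51 ± 0.17. The Nedd9 probe lay in row 35. Nedd9 and Cyp2s1 were named after their values were seen. The higher gene was Serpinb2, an inhibitor of plasminogen activators, which gave 315, 733 and 282 with a log2 difference of 1.45 ± 0.17 between Mst1r vector and empty vector. The list median was -0.16 for Mst1r vector and -0.06 for Slpi vector, beside -0.05 and 0.0057 over all genes. Members of this list therefore lay on both sides of 0.

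Tryptophan catabolism yields endogenous AhR ligands such as kynurenine. Of its 10 genes 5 were detected on all arrays, and the other 5 were not well above background on any array, Ido1 and Kynu among them. With Mst1r vector 1 of the 5 passed the limit as lower, beside 6.05% of all genes. This was Kyat3, which encodes a kynurenine aminotransferase (-0.38 ± 0.13, named after its values were seen). Tdo2, which opens the tryptophan ring, gave 23.8, 53.5 and 22.6 in row 22. Il4i1, an amino acid oxidase, gave 59.7, 132 and 64.6 in row 5. Their log2 differences with Mst1r vector were 1.4 ± 0.81 and 1.37 ± 0.59, at least 2-fold but not beyond the error limit against empty vector. Both probes lay in rows 1 to 32. There, 6.51% of 1612 probes under 15 on both other arrays were over 50 on the Mst1r vector array. With Slpi vector the largest difference was 0.19 (Il4i1).

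**Figure D4:**
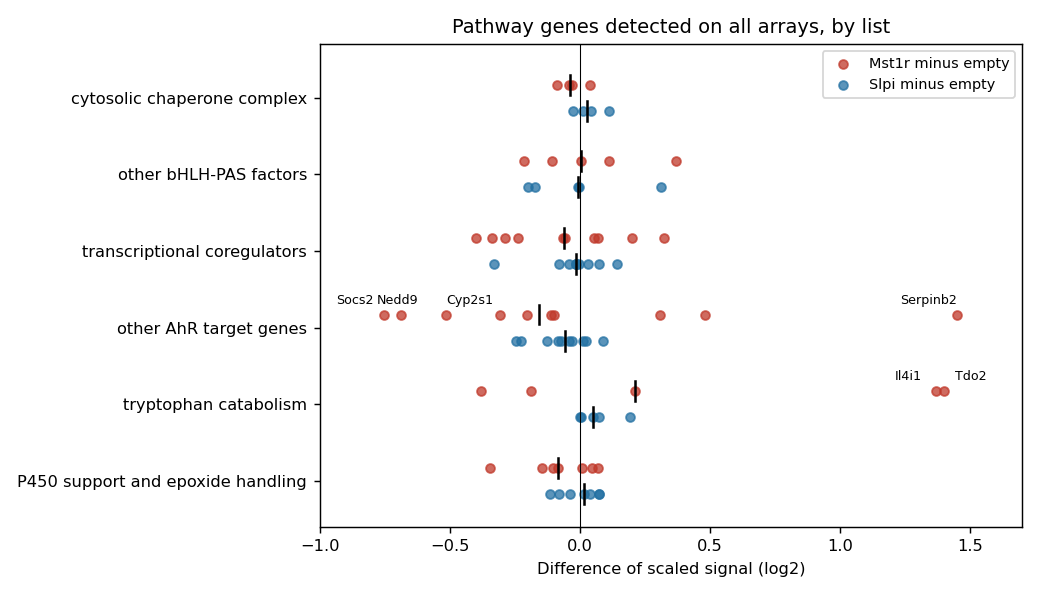
Scaled log2 difference from empty vector for pathway genes that were well above background on all arrays, by list. Each point is a gene, with Mst1r vector in red and Slpi vector in blue, and the black ticks are list medians. With Mst1r vector the further AhR targets run from -0.75 (Socs2) to 1.45 (Serpinb2), while the 4 chaperone genes lie between -0.09 and 0.04.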

How the data were processed

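Total RNA (100 ng) from 3 samples was labelled with Cy3. Per the file headers, the authors obtained spot intensities with Agilent Feature Extraction 12.0.3.1, on an array of design build mm9. The deposited intensity is background subtracted and spatially detrended and is not scaled between arrays. The deposited flags mark spots well above background and outliers. The deposited series table repeated this intensity (medians 18.3, 15.2 and 15.4), with at least 99.9% of values within 0.01 (log2) of the spot means.

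From these, spots of the same probe were averaged as log2 intensity without outlier spots, and the 75th percentile of the array was subtracted, as in the methods. Probes were named through RefSeq accessions (GRCm38.p6, names only), and a gene was represented by its brightest probe. The spot error kept outlier spots, because a probe on 1 spot has no repeats to mark it against. Named genes were all members and, per pathway list, the detected gene with the largest difference and those 2-fold apart, and some of these are not reported here. Members and lists were chosen with earlier results of these data known, and the error limit, the quantile and the neighbour settings were chosen after seeing the data. The alternatives were other scalings, normexp background correction (limma 3.58.1, R 4.3.3), outlier spots kept, the mean of probes, the lower rows of the array, the deposited table and another filter. The steps were tested on simulated data in Python 3.11.15. With 1 array per group no test was run, and precision is limited by the number of arrays. The 3 arrays shared 1 slide, so array position and group cannot be told apart.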

Additional observations from a re-analysis of the deposited data

How the results depend on the processing

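Ahr and Cyp1a1 stayed lower on the Mst1r vector array under each of the 12 alternatives. Several of these could not move them, because each gene had 1 probe on 1 bright spot in the middle rows. These were outlier spots kept, the mean of probes, the lower rows, the deposited table and the other filter. The difference from empty vector ran from -1.09 to -0.82 (log2) for Ahr and from -0.93 to -0.61 for Cyp1a1, and from Slpi vector from -0.90 to -0.60 and from -0.73 to -0.44. Without scaling 1 member, Ahr, was 2-fold apart between Mst1r vector and empty vector, and the member median was -0.36. With the upper rows of the array left out, which leaves 4 members, that median was -0.29, and between Mst1r vector and Slpi vector it was -0.18. For Slpi vector against empty vector the member median was 0.067 under median scaling and -0.34 under spike-in scaling, so its sign depended on the scaling. The median of all genes tested shifted too, from -0.05 to -0.28 without scaling for Mst1r vector against empty vector, and from 0.0070 to 0.17 under median scaling and -0.23 under spike-in scaling for Slpi vector against empty vector. The number of named genes at least 2-fold apart was 667 between Mst1r vector and empty vector, 332 under normexp, 166 without the upper rows and 343 with a mean signal over 50. For Slpi vector and empty vector it was 471, then 241, 40 and 196. For Mst1r vector and Slpi vector it was 600, then 308, 165 and 326. Leaving out a replicate could not be done with 1 array per group. No paired analysis was possible because each group held 1 sample. Signals under 50 were close to background, which limits what can be said of Ahrr, Ugt1a6a, Cyp1a2 and Cyp1b1.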
